A study of Mus musculus with 6 samples.

Results

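The nuclear genes that copy, transcribe and stabilise the mitochondrial genome were examined in MIN6 cells, a mouse insulinoma line used as a model of the pancreatic beta cell, after knockdown of the catalytic subunit of protein phosphatase 2A (PP2Ac). They are 10 genes taken by name from the 54532 genes of the deposited expression table: Tfam, Tfb2m, Polrmt, Tfb1m, Polg, Polg2, Top1mt, Lrpprc, Slirp and Nrf1. The RNA came from 3 control samples and 3 PP2Ac knockdown samples, all from this 1 cell line and with no drug or lipid treatment named in the labels. The titles call the controls shc and the knockdowns sh2, and the construct and the number of clones were not given in the sources used here. Nothing says that the samples of a group were separate cultures, so p-values measure only the spread between these libraries. In bulk RNA, fewer cells of a type and less transcript per cell cannot be told apart.

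Mitochondria keep a small circular genome that encodes core subunits of the respiratory chain together with the rRNAs and tRNAs that translate them, whereas the proteins that maintain and read this genome are encoded in the nucleus. TFAM packages mitochondrial DNA and, with TFB2M, brings the RNA polymerase POLRMT to the promoters. TFB1M methylates the small ribosomal RNA, the polymerase POLG with its accessory subunit POLG2 copies the DNA, and the topoisomerase TOP1MT relaxes it. LRPPRC and SLIRP form a complex that stabilises mitochondrial mRNAs, and NRF1 (nuclear respiratory factor 1) is a transcription factor that activates many nuclear genes of mitochondria. In beta cells, oxidative ATP production couples glucose to insulin release.

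Promoter sequences are shown for the 4 genes in which a motif of NRF1 or of GABP, another regulator of mitochondrial biogenesis, was found, since one of them fell, one rose and the other two did not pass the test given below. RefSeq windows on build GRCm38.p6 covered 9 of the 10 genes, and Top1mt was not matched. Each run is 5′ to 3′ on the strand of the gene, from 250 bases before the start site to 25 bases after it. Capitals mark the NRF1 motif GCGCATGC in Tfb2m and Polrmt, on either strand, and the GABP motif CCGGAAGT in Tfam and Polg.
Tfb2m (chr1:179546252-179546526, minus strand): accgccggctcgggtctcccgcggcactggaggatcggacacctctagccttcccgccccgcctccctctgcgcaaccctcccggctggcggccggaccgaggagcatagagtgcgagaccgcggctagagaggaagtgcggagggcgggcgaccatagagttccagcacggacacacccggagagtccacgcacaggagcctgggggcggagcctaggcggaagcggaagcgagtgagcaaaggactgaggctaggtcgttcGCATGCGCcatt
Polrmt (chr10:79746557-79746831, minus strand): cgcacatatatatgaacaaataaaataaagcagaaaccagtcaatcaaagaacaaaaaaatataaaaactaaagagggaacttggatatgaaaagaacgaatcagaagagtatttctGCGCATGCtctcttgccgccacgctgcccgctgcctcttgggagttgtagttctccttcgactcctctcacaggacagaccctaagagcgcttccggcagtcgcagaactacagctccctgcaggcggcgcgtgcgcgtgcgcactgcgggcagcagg
Tfam (chr10:71238020-71238294, minus strand): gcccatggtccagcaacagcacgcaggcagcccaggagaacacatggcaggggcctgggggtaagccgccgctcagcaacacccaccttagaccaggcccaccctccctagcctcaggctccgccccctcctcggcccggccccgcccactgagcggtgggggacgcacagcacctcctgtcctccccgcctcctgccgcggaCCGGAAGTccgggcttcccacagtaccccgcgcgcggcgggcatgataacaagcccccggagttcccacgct
Polg (chr7:79466249-79466523, minus strand): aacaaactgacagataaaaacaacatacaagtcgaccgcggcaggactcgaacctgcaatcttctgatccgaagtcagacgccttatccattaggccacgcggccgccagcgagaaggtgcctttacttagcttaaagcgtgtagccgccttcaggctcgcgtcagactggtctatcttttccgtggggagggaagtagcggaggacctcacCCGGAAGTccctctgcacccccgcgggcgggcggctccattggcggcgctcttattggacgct

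In these windows the NRF1 motif began at base 14 after the start site of Tfb2m, read on the reverse strand of the window, and at base -133 of Polrmt, on the forward strand. The GABP motif began at base -47 of Tfam and base -38 of Polg. Slirp held the YY1 motif AAGATGGCG at base -86, and the windows of Tfb1m, Polg2, Lrpprc and Nrf1 held none of the 3 motifs, which were searched on both strands. No window held more than 1 match, so matches did not overlap. Of all 32851 promoter windows of 300 bases, 2.71% held the NRF1 motif, 3.89% the GABP motif and 1.40% the YY1 motif. Among the 10447 windows of genes tested below, the same shares were 5.66%, 9.06% and 3.40%. A match describes letters only, and binding was not measured.

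Recovered reads numbered 14614737 to 16030939 per library. Ppp2ca, the alpha gene of the targeted subunit, fell to 28.7% of its control level (37.6 ± 4.33 to 10.8 ± 0.617 FPKM, SD, n = 3; FPKM counts reads relative to gene length and to the size of the library). Ppp2cb, the beta gene of the same subunit and the one with the higher level, was at 86.1% of control (101 ± 10.6 to 86.9 ± 3.45 FPKM) and did not pass (limma adjusted p = 0.0660). The FPKM had the same median-of-ratios factor in all 6 libraries, and the library totals they imply differ from the summed reads by -1.53% to 2.42%, so the values may already have been scaled for composition, a step that no source used here states. Defining beta cell transcripts were at or close to 0: of 15 fixed markers 7, including Ins1 and Ins2, were listed at 0 in all 6 libraries and 13 had a mean below 1 FPKM, so MIN6 is used here as a label only. Mafa and Pdx1, the other two, rose, and the markers summed to 3.02 to 4.70 FPKM in control and 8.21 to 9.85 FPKM in knockdown. Of 8 fibroblast and stromal markers 5 were tested and all 5 rose, with summed levels of 107 to 126 FPKM in control and 278 to 316 FPKM in knockdown, while Lum was listed at 0. Of 6 duct markers 2 were tested and both fell, with summed levels of 681 to 849 FPKM in control and 352 to 392 FPKM in knockdown, nearly all from Spp1. Krt7 of the duct list, not tested, went the other way, from a mean of 0.0178 FPKM in control to 0.251 FPKM in knockdown. Of 6 immune markers Cd68 alone was tested and it fell, with sums of 14.3 to 20.9 FPKM in control and 2.01 to 2.62 FPKM in knockdown, and Itgam, Cd3e and Adgre1 were listed at 0. Of 5 acinar markers Cela1 alone was tested and rose, with sums of at most 0.298 FPKM in control and of 1.77 to 2.26 FPKM in knockdown. Of 5 endothelial markers Eng alone was tested and rose, with sums of 1.15 to 1.45 FPKM in control and 2.98 to 3.10 FPKM in knockdown. Of those not tested, Tek went from a mean of 0.102 FPKM in control down to 0.0185 FPKM in knockdown. Pecam1 went from 0.0408 FPKM up to 0.189 FPKM. Ptf1a, Prss2, Amy2b and Cdh5 of these 2 lists were listed at 0. The part of these shifts in the results below was not tested.

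The 10 genes moved in different directions. Lrpprc, Tfb2m and Nrf1 fell, to 56.3%, 59.4% and 69.1% of control. Top1mt and Polg rose, to 122% and 120.4% of control. Tfam, Polrmt, Tfb1m and Polg2 did not pass the test, and Slirp was under the filter of a mean of 1 FPKM. Thus 5 of 9 tested genes (55.6%) passed a limma adjusted p of 0.05, 2 higher and 3 lower, against 62.4% of all 11652 genes tested, 33.3% higher and 29.1% lower, so the share of calls was close to that in the whole table. The median log2 change of the 9 genes was -0.03, beside 0.03 over all tested genes. The values of the 2 groups did not overlap in 6 of the 9, against 68.1% of all tested genes.

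**Figure D1:**
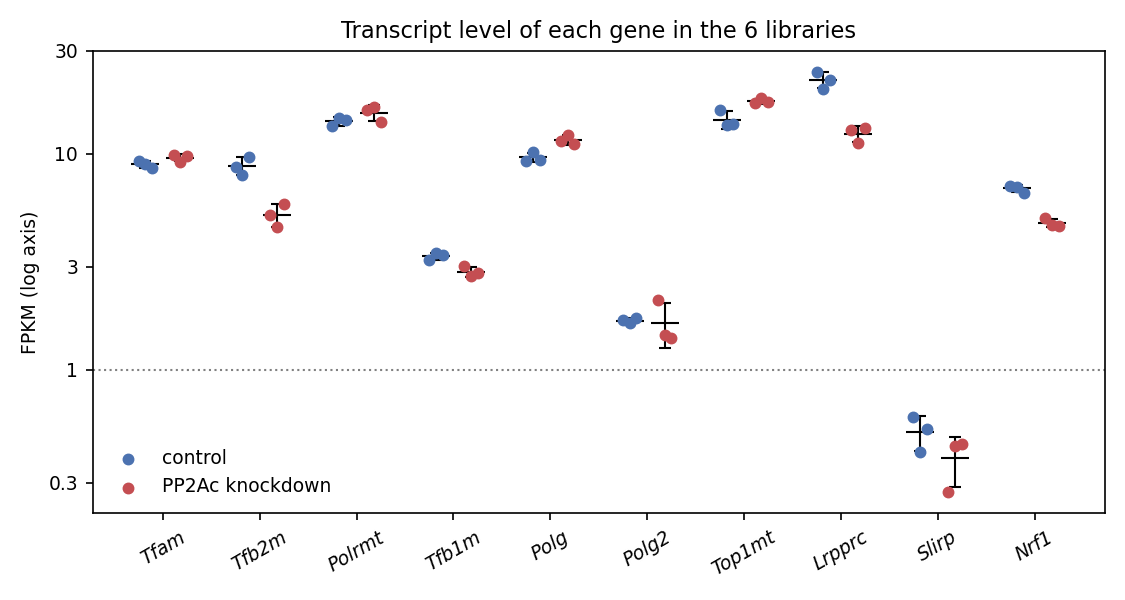
Level of each of the 10 genes in FPKM on a log axis, with 1 point per library (blue control, red PP2Ac knockdown), a bar at the mean and whiskers of 1 SD (n = 3). The dotted line is at 1 FPKM, under which all points of Slirp lie; the red points of Lrpprc, Tfb2m and Nrf1 all lie below the blue ones.

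**Figure D2:**
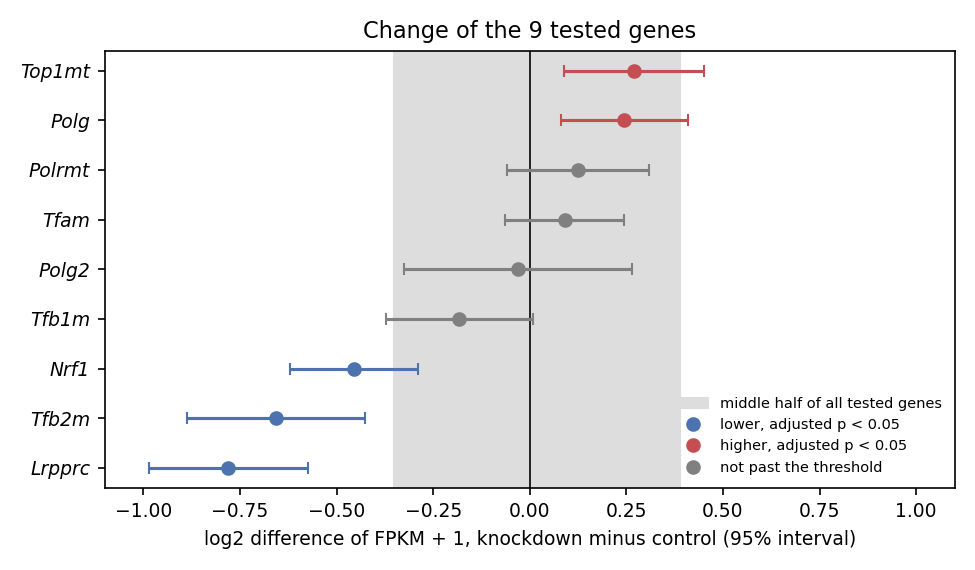
Difference between knockdown and control for the 9 tested genes on the log2(FPKM + 1) scale, with 95% intervals from limma. The grey band, from -0.35 to 0.39, holds the middle 50% of all tested genes; Lrpprc, Tfb2m and Nrf1 have their point below it, and Top1mt and Polg have theirs within it.

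Of the genes that start mitochondrial transcription, Tfb2m fell, and Tfam and Polrmt did not pass. Tfb2m (ENSMUSG00000026492, chromosome 1, 179528055 to 179546267, minus strand, GRCm38), the factor that melts the promoter, had 8.72, 7.9999 and 9.69 FPKM in control and 5.24, 4.59 and 5.85 FPKM in knockdown. All 3 knockdown libraries were below the lowest control library. The log2 change was -0.66 (SE 0.1004, 95% interval -0.89 to -0.43, limma adjusted p = 0.000660), and it passed the test under all 20 alternative settings.

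Tfam (ENSMUSG00000003923, chromosome 10, 71225464 to 71238280, minus strand), which coats mitochondrial DNA and bends it at the promoters, had 9.31, 8.96 and 8.65 FPKM in control and 9.85, 9.196 and 9.804 FPKM in knockdown. The groups overlapped, and the log2 difference of 0.09 did not pass (95% interval -0.06 to 0.24, limma adjusted p = 0.270). Polrmt (ENSMUSG00000020329, chromosome 10, 79736123 to 79746581, minus strand), the RNA polymerase itself, had 13.4, 14.6 and 14.4 FPKM in control and 15.99, 16.6 and 14.1 FPKM in knockdown. Knockdown replicate 3 lay among the control libraries while the other two lay above them, and the log2 difference of 0.12 did not pass (95% interval -0.06 to 0.31, limma adjusted p = 0.203). Both intervals include 0 and end below a rise of the size of the fall in Tfb2m.

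Tfb1m (ENSMUSG00000036983, chromosome 17, 3519256 to 3557781, minus strand), the rRNA methyltransferase related to TFB2M, had 3.22, 3.46 and 3.41 FPKM in control and 3.01, 2.73 and 2.801 FPKM in knockdown. Each knockdown library was below each control library. The log2 difference of -0.18 did not pass (95% interval -0.37 to 0.01, limma adjusted p = 0.0858). Between 151 and 202 reads per library stand behind these values.

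The ratio of Tfb1m to Tfb2m does not depend on the scaling of a library. It was 0.3696, 0.433 and 0.352 in control and 0.575, 0.596 and 0.479 in knockdown, so the groups did not overlap. The mean was 0.385 ± 0.0427 in control and 0.5498 ± 0.0623 in knockdown (SD, n = 3). The log2 difference was 0.51, with a two-sided exact permutation p of 0.1, the smallest that 3 against 3 libraries allow, and 0.25 after adjustment over the 5 ratios computed. The ratio of Tfam to Polrmt was 0.636 ± 0.0509 in control and 0.623 ± 0.0712 in knockdown (SD, n = 3; exact permutation p = 1), with overlapping groups, and its log2 difference of -0.03 changed sign without control replicate 1 (0.03) or knockdown replicate 2 (0.05).

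The replication enzymes showed small differences. Polg (ENSMUSG00000039176, chromosome 7, 79446231 to 79466362, minus strand), the catalytic subunit of the mitochondrial DNA polymerase, had 9.31, 10.2 and 9.37 FPKM in control and 11.5, 12.2 and 11.1 FPKM in knockdown. All knockdown libraries were above all control libraries. The log2 change was 0.24 (SE 0.0714, 95% interval 0.08 to 0.41, limma adjusted p = 0.0166). The call was lost without control replicate 1 (limma adjusted p = 0.0527), control replicate 3 (0.0525) or knockdown replicate 2 (0.0594), and with mitochondrial and rRNA genes removed and each library set to the same FPKM sum (0.0574).

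Polg2 (ENSMUSG00000020718, chromosome 11, 106768253 to 106779537, minus strand), the subunit that raises the processivity of the polymerase, had 1.69, 1.64 and 1.73 FPKM in control and 2.11, 1.45 and 1.398 FPKM in knockdown. Knockdown replicate 1 was the highest of all libraries and the other two the lowest. The log2 difference of -0.03 did not pass (95% interval -0.32 to 0.27, limma adjusted p = 0.855), and reads per library ranged from 91 to 142. The ratio of Polg to Polg2 was 5.498, 6.22 and 5.41 in control and 5.45, 8.403 and 7.93 in knockdown, which overlap (exact permutation p = 0.3).

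Top1mt (ENSMUSG00000000934, chromosome 15, 75657035 to 75678800, minus strand), the topoisomerase that relieves torsion in mitochondrial DNA, had 15.97, 13.6 and 13.7 FPKM in control and 17.2, 18.1 and 17.4 FPKM in knockdown. The groups did not overlap, with control replicate 1 the highest of the control libraries. The log2 change was 0.27 (SE 0.0785, 95% interval 0.09 to 0.45, limma adjusted p = 0.0164). The call was lost without control replicate 2 (limma adjusted p = 0.0575), control replicate 3 (0.0549) or knockdown replicate 2 (0.0524).

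Top1, the nuclear paralog of Top1mt, fell from 9.58 ± 0.859 to 7.39 ± 1.001 FPKM (SD, n = 3; log2 change -0.34, limma adjusted p = 0.0205), a call lost with no filter on low values, without control replicate 1 or 3 and without knockdown replicate 1 or 2 (limma adjusted p from 0.0547 to 0.0705). The ratio of Top1mt to Top1 was 1.56, 1.57 and 1.39 in control and 2.48, 2.68 and 2.04 in knockdown. These groups did not overlap, with a log2 difference of 0.67 (exact permutation p = 0.1, or 0.25 after adjustment over 5 ratios).

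**Figure D3:**
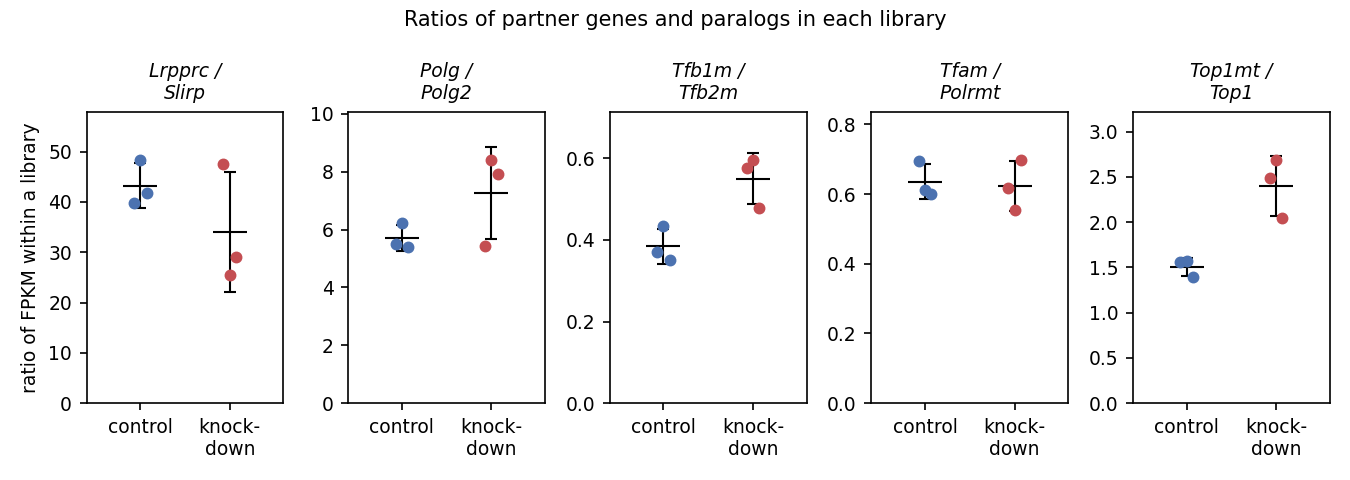
Ratio of FPKM within each library for 5 pairs of genes, with 1 point per library (blue control, red knockdown), the mean and 1 SD (n = 3), and each vertical axis starting at 0. The points of Tfb1m to Tfb2m and of Top1mt to Top1 do not overlap between groups, and those of the other 3 pairs do.

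In the RNA stability complex, Lrpprc fell. Lrpprc (ENSMUSG00000024120, chromosome 17, 84705247 to 84790789, minus strand), a pentatricopeptide repeat protein that keeps mitochondrial mRNAs stable and polyadenylated, had 23.98, 20.1 and 22.1 FPKM in control and 12.9, 11.2 and 13.1 FPKM in knockdown. The highest knockdown library was well below the lowest control library. The log2 change was -0.78 (SE 0.0898, 95% interval -0.99 to -0.57, limma adjusted p = 0.000151), larger in size than that of 82.4% of tested genes, and it passed under all 20 alternatives.

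Slirp (ENSMUSG00000021040, chromosome 12, 87443896 to 87452206, plus strand), the small RNA-binding partner of LRPPRC, had 0.604, 0.415 and 0.5298 FPKM in control and 0.271, 0.442 and 0.453 FPKM in knockdown. These values rest on 30, 20 and 27 reads in control and 13, 21 and 21 reads in knockdown. The groups overlap, and with no filter on low values the log2 difference was -0.13 (limma adjusted p = 0.368). In the GENCODE M21 annotation 97.8% of the exon bases of Slirp also lie in exons on the opposite strand, 93.9% in Snw1, a splicing factor gene, and 3.93% in Alkbh1. The strand setting of the count is unknown here, so reads of Slirp cannot be told apart from those of Snw1 and its level is uncertain. Snw1 itself fell from 11.8 ± 0.898 to 8.28 ± 0.117 FPKM (SD, n = 3; limma adjusted p = 0.000799). The ratio of Lrpprc to Slirp, 43.2 ± 4.51 in control and 33.99 ± 11.9 in knockdown (SD, n = 3; exact permutation p = 0.3), carries the same uncertainty. Of the other 9 genes none shared more than 8.57% of its exon bases with another gene, the share of Polg with Fanci.

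Nrf1 (ENSMUSG00000058440, chromosome 6, 30047988 to 30153458, plus strand), the transcription factor, had 7.12, 7.06 and 6.62 FPKM in control and 5.04, 4.68 and 4.65 FPKM in knockdown. All knockdown libraries were below all control libraries, with little spread in either group. The log2 change was -0.45 (SE 0.0719, 95% interval -0.62 to -0.29, limma adjusted p = 0.000793), and it passed under all 20 alternatives. Nfe2l1, a different factor that has also been called NRF1, fell from 99.7 ± 5.47 to 72.4 ± 1.65 FPKM (SD, n = 3; log2 change -0.46, limma adjusted p = 0.000584). Of the genes whose windows held the NRF1 motif, Tfb2m fell and Polrmt did not pass, and the difference between them was not tested.

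In control the levels per kilobase ran from Lrpprc (22.05 ± 1.96 FPKM) through Top1mt (14.4 ± 1.35), Polrmt (14.1 ± 0.645), Polg (9.63 ± 0.508), Tfam (8.97 ± 0.332), Tfb2m (8.801 ± 0.847), Nrf1 (6.93 ± 0.271), Tfb1m (3.37 ± 0.127) and Polg2 (1.69 ± 0.0457) to Slirp (0.516 ± 0.0951; SD, n = 3). Neighbours in this order overlapped for Top1mt with Polrmt and for Tfam with Tfb2m, and the control libraries of the other 7 neighbouring pairs did not. In knockdown Top1mt (17.5 ± 0.462 FPKM) and Polrmt (15.5 ± 1.31) stood above Lrpprc (12.4 ± 1.04) on this scale, but not on the second scale given below. The order depends on the length assigned to each gene: the table uses 10282 bases for Nrf1, whereas its longest annotated coding transcript has 3584 bases. On reads per kilobase of the longest coding transcript, a scale added after the data were seen, Nrf1 was the second in control at 19.9 ± 0.777, after Lrpprc at 42.7 ± 3.79, and Tfam the seventh at 9.56 ± 0.354 (SD, n = 3). For Lrpprc the table uses 8504 bases, and its longest coding transcript has 4393. On that second scale Lrpprc stayed the highest in knockdown at 24.0 ± 2.01, above Polrmt at 19.4 ± 1.63 and Top1mt at 18.8 ± 0.496 (SD, n = 3).

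The transcripts of the mitochondrial genome itself fell. All 13 mitochondrial mRNAs and both rRNAs were lower, with a median log2 change of -1.46 for the mRNAs, and mt-Rnr2, the large rRNA, went from 448 ± 44.2 to 127 ± 8.9996 FPKM (SD, n = 3; limma adjusted p = 5.07e-06). Of all tested genes 29.1% passed as lower. Some of these mRNAs were thinly or unevenly covered. No library had more than 10 reads of mt-Atp8 or 26 of mt-Nd3. Control libraries ranged from 32.5 to 102 FPKM for mt-Atp6 and from 23.9 to 82.3 FPKM for mt-Co3. The mRNAs made up 3.03% ± 0.370 of reads in control and 1.29% ± 0.0590 in knockdown (SD, n = 3). Of 16 tested mitochondrial tRNAs 6 fell and 10 did not pass. Of these 10, mt-Ta, mt-Ti, mt-Tm, mt-Tq, mt-Tt and mt-Tv had at most 11 reads in any library. That is too few for a missing call to show an unchanged level. The others, mt-Th, mt-Ts2, mt-Tw and mt-Ty, had 10 to 56 reads per library. Any link of these levels to those of Lrpprc, Tfb2m or Nrf1 was not tested.

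Other genes, most of them of the same machinery, were read from 7 lists, of which 78 of 80 genes were tested. In them 27 rose, 25 fell and 26 did not pass, so 66.7% changed with a median log2 change of 0.02, beside 62.4% and 0.03 over all tested genes. The genes named are up to 3 per list with the largest change, and the further genes named were chosen after their values were seen. Of the 52 calls, 38 held in every alternative that tested the gene, and none changed sign. Levels are given as mean ± SD (n = 3).

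In mitochondrial DNA replication and repair, 6 of 12 genes rose, 2 fell and 4 did not pass, with a median of 0.18 and 66.7% called. Poldip2, which encodes a partner of DNA polymerases found in the nucleus and mitochondria, rose from 17.9 ± 1.07 to 28.05 ± 0.576 FPKM (SD, n = 3; limma adjusted p = 0.000119). Endog, the mitochondrial endonuclease G gene, rose from 1.15 ± 0.538 to 2.24 ± 0.639 FPKM with overlapping groups, a call lost with no filter on low values, with array weights, without control replicate 1 or 3 and without knockdown replicate 2 or 3 (limma adjusted p from 0.0549 to 0.107). Exog, a mitochondrial exonuclease gene, rose from 1.86 ± 0.141 to 3.202 ± 0.0948 FPKM, Lig3, the DNA ligase of mitochondria, from 5.06 ± 0.3097 to 7.08 ± 0.0925 FPKM and Top3a, a topoisomerase gene, from 3.97 ± 0.559 to 5.31 ± 0.224 FPKM, and these 3 calls held in every alternative that tested the gene. Twnk, the replicative helicase, rose from 13.98 ± 0.443 to 16.02 ± 0.627 FPKM, and 11 alternatives ended that call, with limma adjusted p from 0.0516 to 0.166, among them each control library and knockdown replicate 1 or 2 left out. The genes that fell were Primpol, a primase that restarts stalled forks, from 2.803 ± 0.302 to 1.28 ± 0.147 FPKM, and Ssbp1, the single-strand binding protein of mitochondrial DNA, from 5.29 ± 0.168 to 3.56 ± 0.237 FPKM.

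In transcription and nucleoid upkeep, 6 of 11 genes fell, 3 rose and 2 did not pass, with a median of -0.36 and 81.8% called. Lonp1, the matrix protease that degrades TFAM among other substrates, fell from 219.6 ± 13.5 to 94.8 ± 4.46 FPKM (log2 change -1.20, limma adjusted p = 9.41e-06). Mterf1b and Mterf1a, genes of the termination factor MTERF1, fell from 3.61 ± 0.359 to 1.52 ± 0.3596 and from 2.0997 ± 0.211 to 0.933 ± 0.165 FPKM (SD, n = 3). This pair is closely related in sequence, so the split of reads between them is uncertain. The genes that rose were the prohibitin genes Phb, from 44.9 ± 1.38 to 64.03 ± 3.69 FPKM, and Phb2, from 72.6 ± 6.02 to 87.3 ± 5.29 FPKM, and Mrpl12, a ribosomal protein that also binds POLRMT, from 38.5 ± 3.23 to 57.8 ± 5.66 FPKM. The Phb2 call was lost with no filter on low values, with upper-quartile scaling, without control replicate 3 and without knockdown replicate 2 or 3 (limma adjusted p from 0.0507 to 0.0811).

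Among RNA processing and decay genes 7 of 19 were higher, 4 were lower and 8 did not pass, with a median of 0.02 and 57.9% called. The mitochondrial RNase P, which frees tRNAs at their leading ends, has 3 protein subunits, of which 2 rose and 1 fell. Trmt10c, its methyltransferase subunit, fell from 10.9 ± 1.67 to 4.53 ± 0.693 FPKM (log2 change -1.11, limma adjusted p = 0.000131), while Hsd17b10, the dehydrogenase subunit, rose from 39.8 ± 2.25 to 61.9 ± 6.96 FPKM (limma adjusted p = 0.000633). The nuclease subunit, named 1110008L16Rik in the table and Prorp in RefSeq, rose from 1.52 ± 0.1104 to 2.33 ± 0.291 FPKM, a call lost without knockdown replicate 1 (limma adjusted p = 0.0528). Grsf1, a protein of mitochondrial RNA granules, rose from 25.4 ± 1.59 to 45.1 ± 2.13 FPKM. Besides Trmt10c, Fastkd2 fell from 6.47 ± 0.349 to 4.21 ± 0.323 FPKM and Fastkd5 from 3.37 ± 0.3496 to 2.28 ± 0.366 FPKM, both from a family of mitochondrial RNA-binding proteins. Fastk, Fastkd1 and Fastkd3 did not pass. Pnpt1, a mitochondrial exoribonuclease gene, fell from 12.7 ± 1.23 to 10.6 ± 0.696 FPKM, a call lost with no filter on low values, without a variance trend, without control replicate 1 or 3 and without knockdown replicate 1 or 2 (limma adjusted p from 0.0561 to 0.129).

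Of the mitochondrial rRNA modification genes 2 of 11 were higher, 2 were lower and 7 did not pass, with a median of 0.02. The share called was 36.4%, beside 62.4% of all tested genes. Mrm1, an rRNA ribose methyltransferase, rose from 3.54 ± 0.417 to 7.53 ± 0.256 FPKM and Mrm2, another, from 8.01 ± 0.729 to 10.4 ± 0.958 FPKM. Ngrn, which supports the large rRNA, fell from 27.5 ± 0.797 to 20.4 ± 0.337 FPKM. Trmt61b, an RNA methyltransferase gene, fell from 1.46 ± 0.352 to 0.8698 ± 0.127 FPKM, a call lost with a pseudocount of 0.1, with no filter on low values, with the replicate block, without control replicate 2 or 3 and without knockdown replicate 1, 2 or 3 (limma adjusted p from 0.0508 to 0.153).

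Of the genes that make, break down or carry nucleotides 7 of 12 were higher, 4 were lower and 1 did not pass, with a median of 0.24. The share called was 91.7%, beside 62.4% of all tested genes. Samhd1, a deoxynucleotide hydrolase, and Tymp, which breaks down thymidine, are among the 7. Samhd1 rose from 12.6 ± 1.14 to 22.9 ± 1.42 FPKM and Tymp from 2.296 ± 0.161 to 3.69 ± 0.529 FPKM. Of the rest, Suclg1 rose from 16.02 ± 0.532 to 22.9 ± 1.80 FPKM and Dguok from 5.62 ± 0.309 to 7.02 ± 0.361 FPKM. Rrm2 rose from 56.7 ± 5.49 to 70.7 ± 5.22 FPKM and Rrm1 from 22.5 ± 1.54 to 27.9 ± 1.63 FPKM. Tk2 rose from 8.92 ± 0.179 to 10.5 ± 0.751 FPKM. The Rrm1, Rrm2 and Tk2 calls were lost in 1, 3 and 11 alternatives (limma adjusted p from 0.0523 to 0.130). Slc25a33, a pyrimidine nucleotide carrier, fell from 30.9 ± 2.66 to 19.9 ± 0.628 FPKM. Rrm2b, a ribonucleotide reductase subunit used outside S phase, fell from 3.13 ± 0.384 to 1.82 ± 0.1704 FPKM. Slc25a36, another nucleotide carrier, fell from 5.48 ± 0.489 to 3.91 ± 0.359 FPKM, and Mpv17, an inner membrane protein needed to keep mitochondrial DNA, from 11.3 ± 1.32 to 8.2002 ± 1.26 FPKM, the latter a call lost with no filter on low values and without control replicate 1 (limma adjusted p from 0.0510 to 0.0535).

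Of 10 tested regulators of mitochondrial biogenesis 2 rose, 4 fell and 4 did not pass, with a median of -0.22 and 60.0% called. Esrra, an orphan nuclear receptor that works with PGC-1 coactivators, rose from 14.2 ± 0.878 to 33.5 ± 6.05 FPKM (log2 change 1.17, limma adjusted p = 8.56e-05), and Hcfc1, a chromatin cofactor, from 32.3 ± 3.54 to 52.8 ± 4.56 FPKM. Gabpa, the DNA-binding subunit of GABP, fell from 13.9 ± 1.49 to 8.14 ± 0.967 FPKM (log2 change -0.70, limma adjusted p = 0.000589) and Gabpb2, a partner subunit, from 11.2 ± 0.848 to 6.78 ± 0.765 FPKM. Of the genes whose windows held the GABP motif, Polg rose and Tfam did not pass. Yy1, a zinc finger regulator, fell from 21.9 ± 1.15 to 17.96 ± 0.701 FPKM. Ppargc1a, which encodes PGC-1 alpha, was low in both groups and went from 1.42 ± 0.214 to 0.849 ± 0.0308 FPKM, a call lost with no filter on low values, without control replicate 1 or 3 and without knockdown replicate 1, 2 or 3 (limma adjusted p from 0.0501 to 0.0883). A last list holds 3 genes outside this machinery, namely Top1, Dimt1 and, for its shared alias only, Nfe2l1, and all 3 fell. Dimt1, which encodes a nucleolar relative of TFB1M and TFB2M, fell from 6.99 ± 0.575 to 4.31 ± 0.6001 FPKM.

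**Figure D4:**
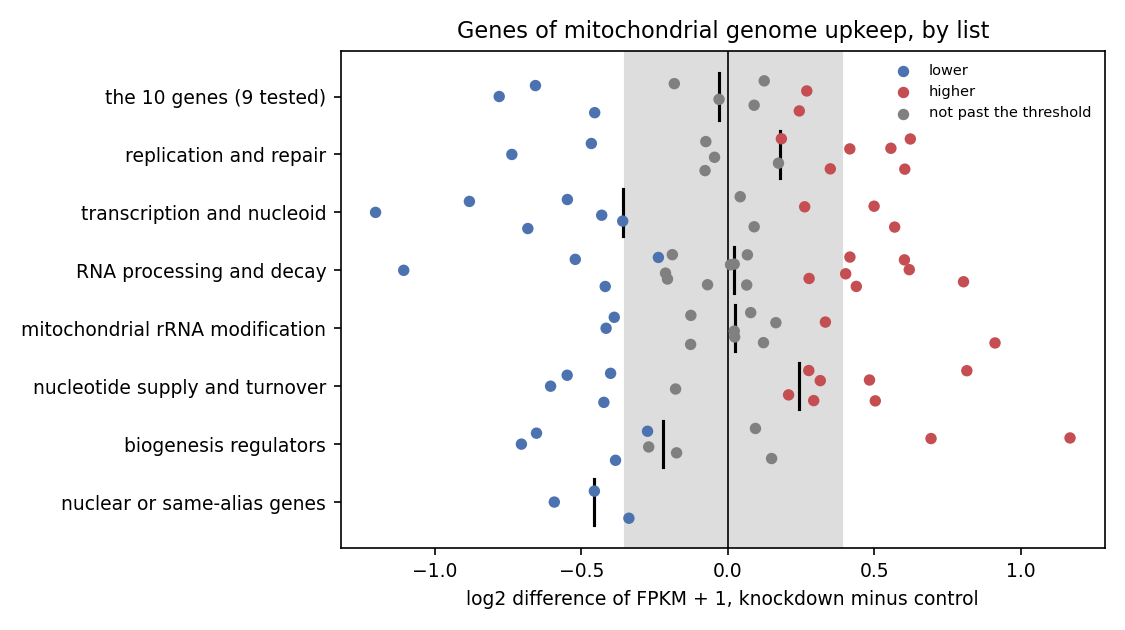
Difference between knockdown and control on the log2(FPKM + 1) scale for the tested genes of each list, 1 point per gene (blue lower, red higher, grey not past an adjusted p of 0.05), with a black bar at the median of the list. The grey band from -0.35 to 0.39 holds the middle 50% of all tested genes; each list has points on both sides of 0 except that of Top1, Dimt1 and Nfe2l1, which are all below it.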

How the data were processed

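The authors deposited 1 table of FPKM values per gene for 6 libraries. Per the labels' protocols, RNA was extracted by Trizol before library preparation with an Illumina TruSeq RNA kit; their text speaks of frozen tissue, although each sample is labelled as the cell line. Per the submitters' processing notes the builds are GRCm38 and mm10. The aligner, counter and strand setting were not given in the sources used here. FPKM times gene length gave whole reads for 100% of non-zero values (tolerance 0.01). All 10 genes lie at the same place in GENCODE M21.

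The test was limma 3.58.1 (R 4.3.3; lmFit, eBayes with trend) on log2(FPKM + 1), knockdown minus control, for the 11652 genes with a mean of at least 1 FPKM, with Benjamini-Hochberg adjustment over all of them and a threshold of 0.05. The pseudocount understates changes of low genes. Ratios within a library were tested by exact permutation. The fitting script was tested on simulated data. Named genes were the 10, Ppp2ca, and up to 3 changed genes per list with the largest change; further list genes, Ppp2cb, Snw1 and mt-Rnr2 were added after their values were seen. The genes and lists were chosen with earlier results of these data known. Same-numbered samples did not deviate together in each pair (r of deviations -0.01, 0.16 and 0.05), so they were not treated as pairs. Alternatives covered the pseudocount, the filter, library scaling, the variance model, weights, voom on recovered reads, a replicate block and each library left out. Tables were made in Python 3.11.15.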

Additional observations from a re-analysis of the deposited data

How the results depend on the processing

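Lrpprc, Tfb2m and Nrf1 passed as lower in all 20 alternatives, so the count of lower genes stayed at 3. The count of higher genes, reported as 2, was 1 with mitochondrial and rRNA genes removed and an equal FPKM sum, where Polg was lost, and ranged from 0 to 2 with 1 library left out: 0 without control replicate 3 or knockdown replicate 2, and 1 without control replicate 1 or 2. Polg2, never called, changed sign with array weights (0.0478), and with 1 library left out ranged from -0.149 to 0.0383, positive without knockdown replicate 2 or 3. Tfam, Polrmt and Tfb1m kept their direction and did not pass in any alternative that tested them; at a mean of at least 5 FPKM Tfb1m and Polg2 were not tested. Calls over the whole table ranged from 5182 of 7728 tested genes at that filter to 8123 of 26998 with no filter. The main fit called 7267 of 11652, so the share called was higher at the stricter filter and lower with none. Voom on the recovered reads called 7381 genes and the same 5 of the 10. Median-of-ratios factors of the deposited FPKM were 1.01 in all 6 libraries, so that scaling, 1 of the 20, differed little from the main fit. It tested 11638 genes and called 7258, all of them also called in the main fit. The calls among the 10 genes were the same. With the replicate block 7363 genes passed, against 7267 without it, and the calls among the 10 genes were the same, while Trmt61b was lost. With 1 library left out the log2 difference of the ratio of Lrpprc to Slirp, reported as -0.40, ranged from -0.67 to -0.21 (both ends on leaving out a knockdown library, replicate 1 or 2), and that of Polg to Polg2, reported as 0.32, from 0.21 to 0.52 (knockdown replicate 2 or 1). A longer NRF1 motif with a free base, GCGCANGCG, was found in the same 2 genes, in Polrmt at other places. This motif was more common, in 6.25% of all promoter windows and 14.4% of those of tested genes. Depth limits Slirp most: there 3 reads give 0.0589 to 0.0647 FPKM, for counting error only.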
